A study of Mus musculus with 21 samples.

Results

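The genes described here encode the proteins of the cytosolic ribosome. They were taken by name from the array design: every non-control spot whose gene name is Rpl or Rps followed by a number and at most 1 letter, or is Rplp0, Rplp1, Rplp2 or Rpsa. This gave 81 of the 34797 gene names on the array, 49 of the large (60S) subunit and 32 of the small (40S) subunit. The genes were chosen by name, and 1 probe per gene was chosen by its measured Cy5 signal, as the brightest, so the Cy5 levels below are a description and carry no test. Of the 81 names, 78 passed the filter on dim probes, 46 of the large and all 32 of the small subunit, and each of these was well above background on all 21 arrays. The name pattern leaves out genes such as Fau and Gnb2l1 (Rack1), which also contribute to the ribosome, and it takes in the paralogs Rpl3l, Rpl10l, Rpl39l and Rps27l.

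The RNA came from livers of adult male C57BL/6J mice. All mice spent 3 weeks on a normal-fat diet and then 12 weeks on a high-fat diet. In the HF group (11 livers) that diet held no supplement, and in the HF-Q group (10 livers) it held 0.33% (w/w) quercetin, a plant flavonol. Both groups were fasted for 2 to 4 hours before they were killed, and no group on a normal-fat diet alone is among the arrays. Of 24 mice, 3 arrays were left out by the authors for uneven hybridisation. On each array, Cy5 carried 1 liver and Cy3 carried an equimolar pool of all livers, with no dye swap. Values below are log2 of liver over pool unless they are called a Cy5 level. The labels name 1 sample per mouse and give no litter or cage.

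A cytosolic ribosome is built from a small subunit, which reads the messenger RNA, and a large subunit, which joins amino acids. Each ribosomal protein is needed in a single copy per ribosome apart from the stalk proteins, and the genes that encode them are transcribed at high levels in most cells, liver included, where the hepatocyte secretes much of the plasma protein. Their messenger RNAs begin with a C followed by a run of pyrimidines, the terminal oligopyrimidine (TOP) tract, through which mTORC1 and Larp1 control how much of the message is translated. An array of total RNA measures the message and not its translation.

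The sequences around the annotated transcription starts of 8 genes are given to show where a pyrimidine run of this kind, CTTTC, is and is not found near an annotated start; most of the genes searched did not hold these letters there. RefSeq promoters of the GRCm38.p6 build were matched by symbol for 57 of the 78 genes, with 68 annotated starts. Each line holds 15 bases before and 15 bases from an annotated start, 5′ to 3′ on the transcribed strand, with every CTTTC in capitals. The first 5 genes carry the motif in this window and the last 3 do not.
Rpl12: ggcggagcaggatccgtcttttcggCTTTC
Rpl13a: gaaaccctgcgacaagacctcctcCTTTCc
Rplp2: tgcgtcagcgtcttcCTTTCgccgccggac
Rps10: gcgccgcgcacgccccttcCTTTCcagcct
Rps27: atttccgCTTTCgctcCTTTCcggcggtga
Rplp0: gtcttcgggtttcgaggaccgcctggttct
Rps2: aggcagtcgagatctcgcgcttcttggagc
Rps27l: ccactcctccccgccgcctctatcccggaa
In GRCm38.p6 these windows lie at chr2:32961697-32961726 (plus strand) for Rpl12, chr7:45128731-45128760 (minus) for Rpl13a, chr7:141447636-141447665 (plus) for Rplp2, chr17:27635230-27635259 (minus) for Rps10 and chr3:90213634-90213663 (minus) for Rps27. Those without the motif lie at chr5:115559452-115559481 (plus) for Rplp0, chr17:24720048-24720077 (plus) for Rps2 and chr9:66946071-66946100 (plus) for Rps27l, the last being the more upstream of its annotated starts.

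From 20 bases before to 20 bases after a start, CTTTC on the transcribed strand was found in 18 of the 57 genes (31.6%), in 6.39% of 26968 other genes and in 5.49% of all 32851 promoters in the table. Over the whole promoter, 250 bases before to 50 after, and on both strands, GGAAGT, the core bound by Ets-type factors such as GABP, was found in 52.6% of the 57 genes and in 26.49% of other genes (23.77% of all promoters). ATGGCG, part of the motif of Yy1 and also a common context of a start codon, was found in 29.8% of them and 10.17% of the others (8.93% of all promoters). TATAAA in the 40 bases before a start was found in none of the 57 genes and in 2.78% of the others (2.31% of all promoters). These are matches of letters in a window and not sites.

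Between 45.5% and 52.5% of the non-control spots on an array were well above background in Cy5, and the median Cy5 signal of an array ranged from 64.5 to 74.8 intensity units. On these arrays 19650 gene names had a measured probe. Of them, 0 (0%) differed between HF-Q and HF at an adjusted p of 0.05 in limma's moderated test, the lowest adjusted p being 0.380, and 1170 (5.95%) had an unadjusted p under 0.05. The 8 hepatocyte markers, Alb and Hnf4a among them, were all measured. Transcripts of the pancreatic acinar cell stood out in the livers HF 5 and HF 11, where the mean log2 ratio of the 4 acinar markers measured, of 8 listed, was 1.53 and 2.08, against -0.970 to -0.156 in the other 19 livers.

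Ribosomal protein genes gave bright spots without saturation. Over spots not marked uneven or outlying, the mean Cy5 level of the 78 genes ran from 18018 to 210420 intensity units with a median of 59360. Large subunit genes had a median level of 58954 and small subunit genes of 63434. In neither channel was any spot of the 186 probes for these genes saturated on any of the 21 arrays. The highest single value, 254650 for Rps14 in HF-Q 1, was 40.1% of the lowest saturation value of an array, which was 634468. No value of these genes therefore rests on a saturated spot. The levels belong to single probes, which bind with different strength, and the order of genes by level is therefore no order of their messages.

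The 5 genes with the highest Cy5 level were Rps14, Rpl10, Rpl41, Rpl37a and Rplp0. Rps14, a protein of the platform of the small subunit, had a level of 204880 ± 18789 (SD, n = 10) in HF and 215960 ± 22389 (SD, n = 10) in HF-Q. Rpl10, which joins the large subunit last and completes its active site, had 201020 ± 11932 (SD, n = 10) in HF and 210380 ± 13726 (SD, n = 10) in HF-Q. For Rpl41, the smallest ribosomal protein, the lowest and highest livers were at 133190 and 187254. In all of them the ranges of the groups overlapped.

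At the other end, the 3 paralogs Rpl3l, Rpl10l and Rpl39l were not well above background on any array. Rpl3l is known as the form of Rpl3 in heart and skeletal muscle, and Rpl10l and Rpl39l as forms used in male germ cells. Their mean Cy5 levels were 44.8, 47.2 and 41.6 intensity units, under the median of all non-control spots on any array. They were not well above background in these livers and have no fold change here. Among the measured genes, the lowest levels were those of Rps21 (15367 to 22477 over the livers) and Rpl5 (16056 to 23248).

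**Figure D1:**
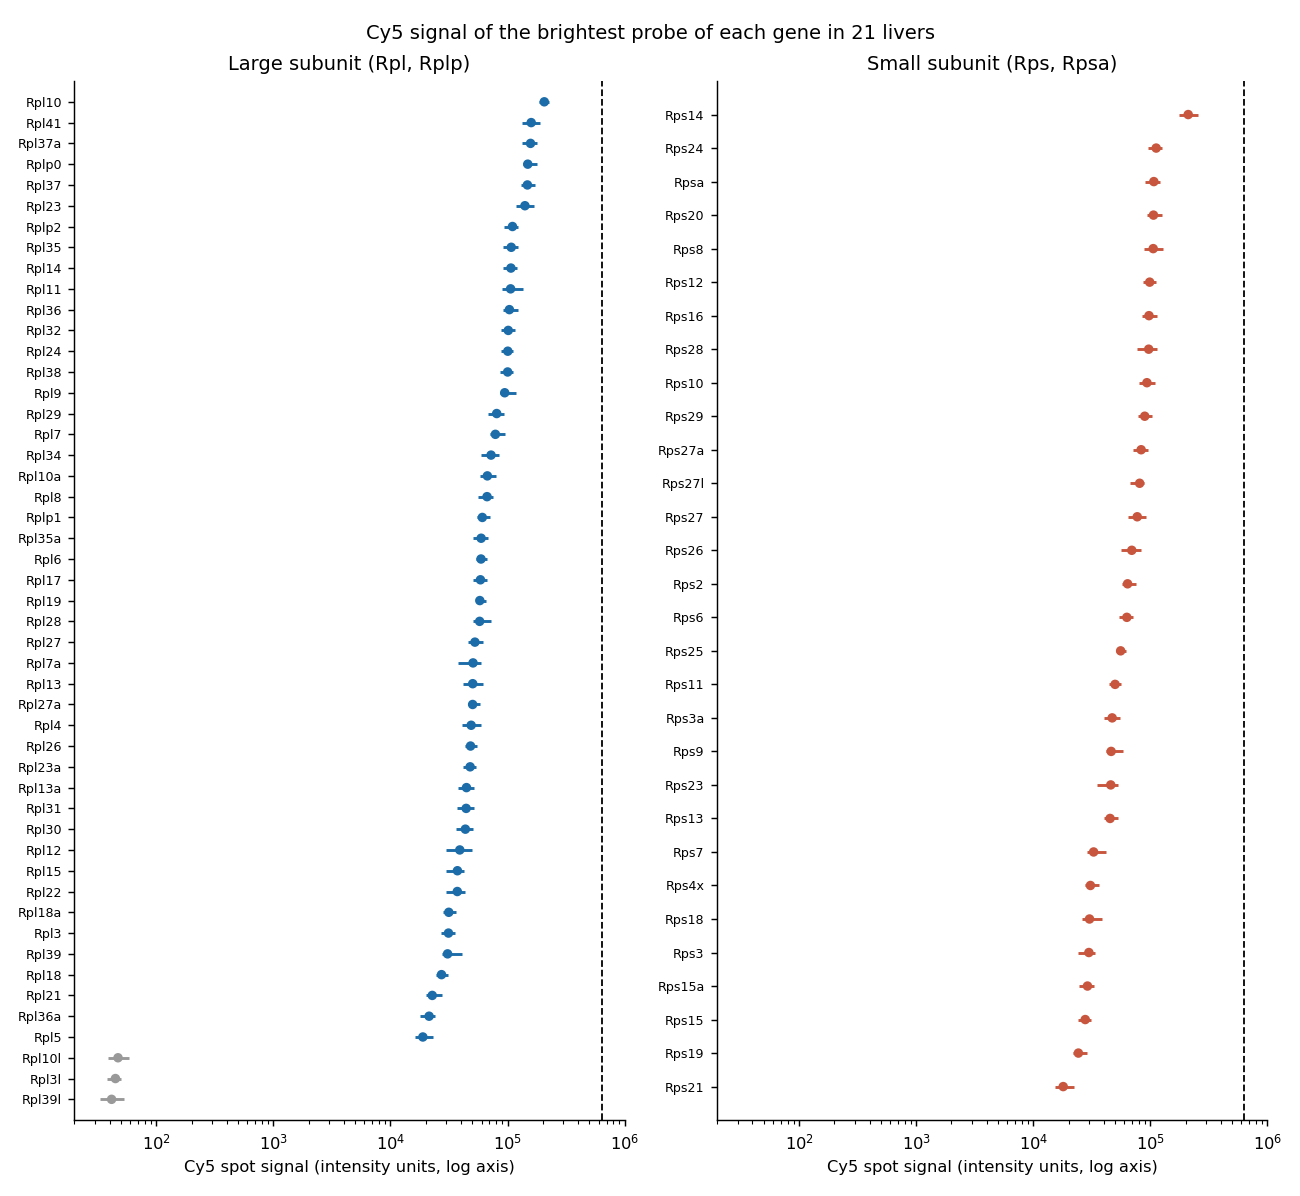
Mean Cy5 signal (points) and its range over 21 livers (lines) for the brightest probe of 79 of the 81 gene names (log axis). The large subunit is left and the small subunit right. Grey marks names that were not well above background, and the dashed line is the lowest saturation value of an array (634468). The means of the measured genes lie between 18018 and 210420, and those of Rpl10l, Rpl3l and Rpl39l lie near 45. All points and lines lie left of the dashed line.

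In the comparison that the study was built for, HF-Q against HF, the ribosomal protein genes lay on 1 side of 0. The mean log2 ratio was higher in HF-Q for 77 of the 78 genes (46.8% of all genes tested were higher) and lower for 1, Rps2 (53.2% of all genes were lower). The differences were small: the median log2 fold change was 0.067, a fold of 1.05, the quartiles were 0.054 and 0.086, and the range was -0.0052 to 0.17. Over all 19650 genes the median was -0.0045. None of the 78 passed an adjusted p of 0.05 in limma (0% of all genes did). An unadjusted p under 0.05 was reached by 25 genes, all of them higher in HF-Q, which is 32.1% of the 78 beside 3.01% of all genes tested for that direction, and by none in the lower direction (2.94% of all genes). Other genes within the same range of Cy5 level reached that p more often than genes in general: of 1557 such genes, 7.26% did so in the higher direction and 7.45% in the lower. The groups overlapped for every one of the 78 genes, and this was not counted over all genes tested. The genes share livers and arrays and varied together, as described below, so these are not 78 separate measurements. In a whole liver, fewer cells of a type and less RNA per cell cannot be told apart.

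The size of the difference depended on how the arrays were scaled. With median centring in place of loess the median log2 fold change was 0.14, while that of all genes moved to 0.024, and in the authors' deposited log2 table it was 0.11. In these settings 77 and 78 of the 78 genes, in that order, were higher in HF-Q. The members' median was 0.077 with loess fitted without the ribosomal protein spots and 0.085 in the Cy5 channel alone, with 78 genes higher in each.

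**Figure D2:**
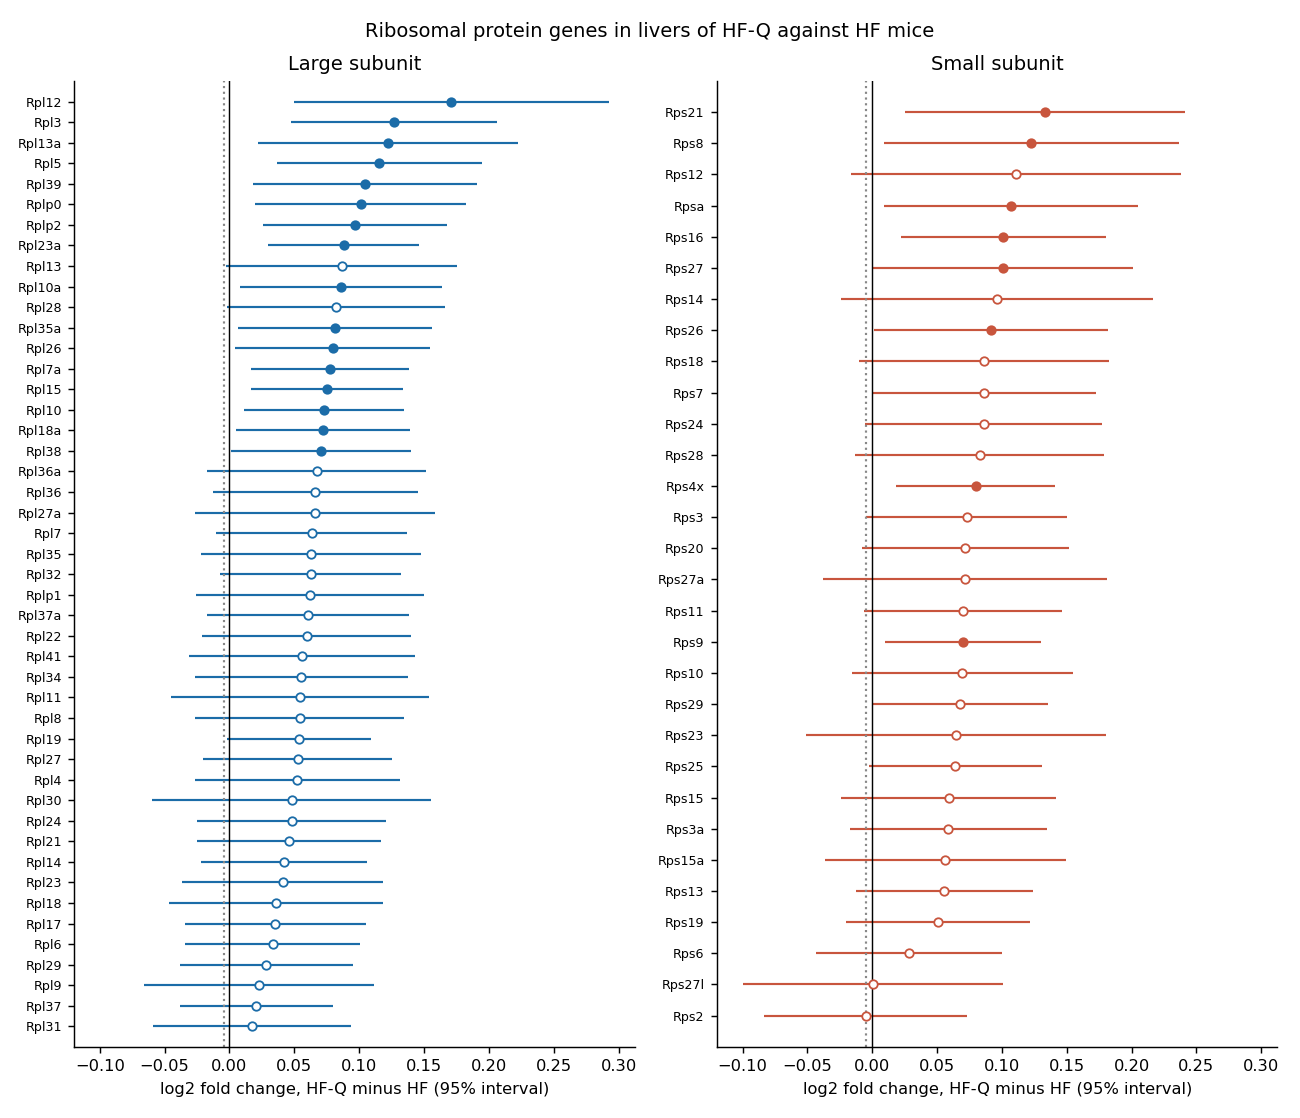
Log2 fold change (HF-Q minus HF) of 76 of the 78 measured ribosomal protein genes with its 95% interval from limma, ordered within each subunit; filled points have an unadjusted p under 0.05, the solid line is 0 and the dotted line the median of all genes tested (-0.0045). All points except Rps2 lie right of 0, from 0.00036 for Rps27l to 0.17 for Rpl12, and 24 are filled.

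Rpl3, a core protein beside the peptidyl transferase centre, ranged from -0.34 to -0.075 in HF (median -0.26, n = 10) and from -0.22 to 0.013 in HF-Q (median -0.13, n = 10). All HF livers but HF 2 were below -0.19. Its log2 fold change was 0.13 ± 0.038 (SE), with an adjusted p of 0.733 in limma.

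Rpl23a, which sits at the exit of the peptide tunnel where the signal recognition particle docks, had a narrow spread. In HF it ran from -0.10 to 0.0037 with a median of -0.057, and in HF-Q from -0.032 to 0.15 with a median of 0.034. Its log2 fold change was 0.088 ± 0.028 (SE), with an adjusted p of 0.733 in limma.

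Rpl5, which carries the 5S ribosomal RNA together with Rpl11 and binds Mdm2 when ribosomes fail to assemble, ran from -0.14 to 0.12 in HF (median 0.0040) and from -0.0093 to 0.22 in HF-Q (median 0.097). Its log2 fold change was 0.12 ± 0.038 (SE), with an adjusted p of 0.733 in limma. Rpl11, its partner, had 0.054 ± 0.048 (SE).

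Rpl12, at the base of the stalk, had the widest spread of all 78 genes, with an SD of 0.16 over the 21 livers. It ran from -0.42 (HF 3) to 0.13 (HF 2) in HF and from -0.16 (HF-Q 10) to 0.29 (HF-Q 7) in HF-Q, with medians of -0.11 and 0.020. Its log2 fold change of 0.17 ± 0.059 (SE) was the highest of the 78 and had an adjusted p of 0.743 in limma. In the array's annotation, which uses the mm9 build, the probe of Rpl23a lies at chr11:77994946-77995005, that of Rpl5 at chr5:108333834-108333892 and that of Rpl12 at chr2:32819082-32819298.

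**Figure D3:**
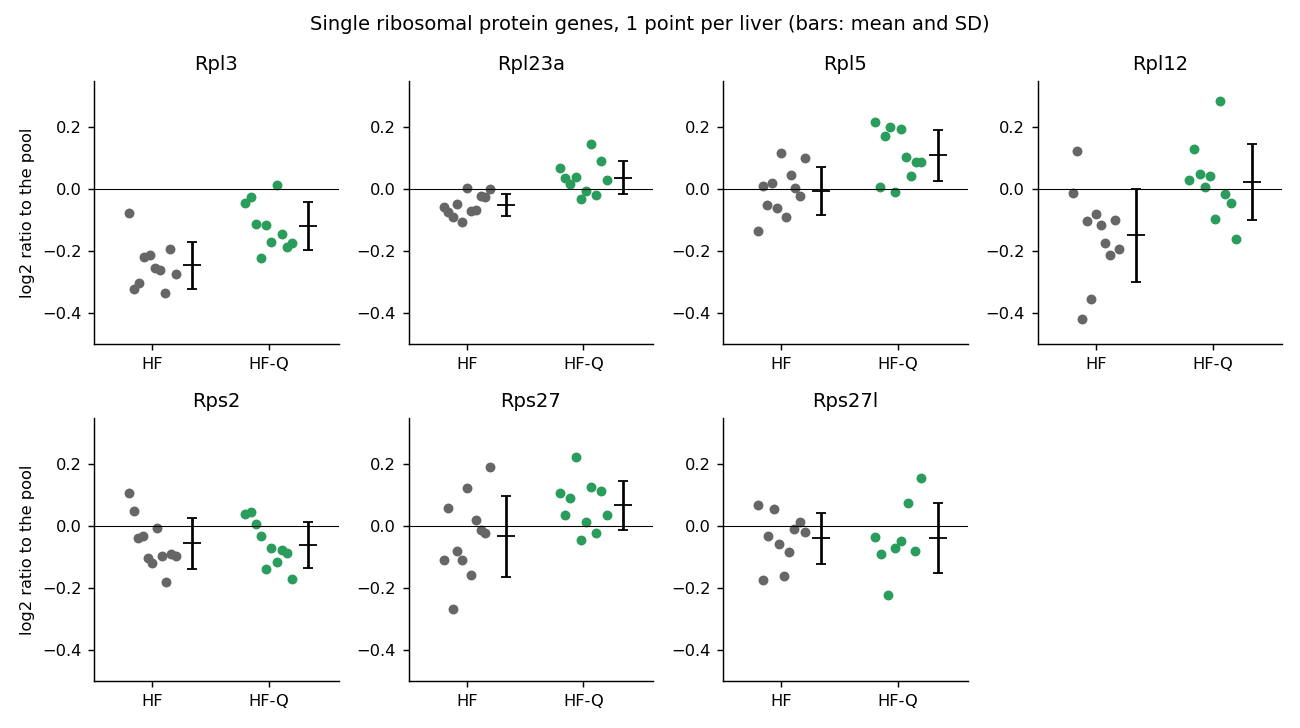
Log2 ratio to the pool of 7 ribosomal protein genes, 1 point per liver, with the mean and SD of each group at its side (HF grey, HF-Q green; livers whose spot was left out have no point). The groups overlap in every panel; the HF-Q mean lies above the HF mean for Rpl3, Rpl23a, Rpl5, Rpl12 and Rps27, and the means are -0.055 and -0.060 for Rps2 and both -0.040 for Rps27l.

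The large and the small subunit gave similar values. All 46 large subunit genes and 31 of 32 small subunit genes had a higher mean in HF-Q, with median log2 fold changes of 0.063 and 0.072, and the difference between these medians was -0.0090. An unadjusted p under 0.05 in limma was reached by 16 large and 9 small subunit genes, 34.8% and 28.1% of them. All of these were higher in HF-Q. For that direction the share was 3.01% of all genes tested and 7.26% of 1557 other genes within the same range of Cy5 level. In each liver the mean over large subunit genes minus that over small subunit genes was near 0: 0.011 ± 0.013 (SD, n = 11) in HF and 0.0037 ± 0.014 (SD, n = 10) in HF-Q. No test was run on these means, since the members share arrays.

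Liver by liver, the mean log2 ratio over the 78 genes was -0.029 ± 0.063 (SD, n = 11) in HF, with a lowest, median and highest value of -0.15, -0.018 and 0.064. In HF-Q it was 0.042 ± 0.050 (SD, n = 10), with -0.035, 0.051 and 0.13. It was below 0 in 8 of 11 HF livers and above 0 in 7 of 10 HF-Q livers. HF 3 and HF 5 were the lowest of all, HF-Q 7 and HF-Q 1 the highest, and the groups overlapped between -0.035 and 0.064. Between 9 (HF 3) and 59 (HF 2) genes lay above the pool in an HF liver, and between 34 (HF-Q 6) and 68 (HF-Q 7) in an HF-Q liver.

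The arrays lay on 3 slides, each with both groups. On slide 1 the mean over the genes was -0.089 in 3 HF and 0.014 in 4 HF-Q livers, on slide 2 it was -0.0042 in 4 and 0.053 in 2, and on slide 3 it was -0.0090 in 4 and 0.064 in 4. Fitted alone, the slides had 75, 69 and 76 of the 78 genes higher in HF-Q, with median log2 fold changes of 0.097, 0.055 and 0.073. With slide as a block the median was 0.076.

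**Figure D4:**
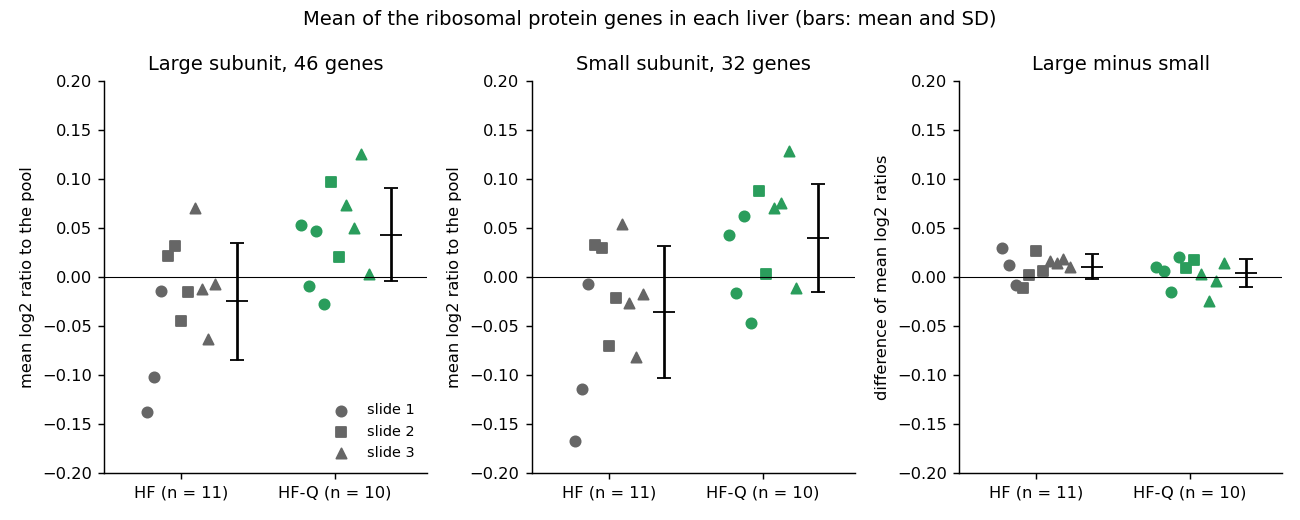
Mean log2 ratio to the pool over the 46 large and the 32 small subunit genes in each liver, and the difference between the 2 means, with marker shapes for the 3 slides and the mean and SD of each group. For the large subunit HF livers run from -0.14 to 0.071 and HF-Q livers from -0.027 to 0.13. For the small subunit they run from -0.17 to 0.054 and from -0.047 to 0.13. The difference between subunits lies between -0.025 and 0.029 in every liver.

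Other genes within the same range of brightness lay on both sides of 0. Within the range of Cy5 level of the 78 genes there were 1557 other genes, which were not matched to them on level. Their median log2 Cy5 was 15.3, beside 15.9 for the 78 genes. Of the 1557 genes, 666 were higher and 891 lower in HF-Q, with a median log2 fold change of -0.012. An unadjusted p under 0.05 was reached by 229 of them (14.7%), 113 higher and 116 lower, a larger share than the 5.95% of all genes tested. Without the names that the array describes as a ribosomal protein, 1513 genes were left, with 628 higher, 885 lower and a median of -0.013.

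Among the stalk proteins, which recruit the elongation factors to the large subunit, Rplp0 ranged from -0.15 to 0.095 in HF and from -0.044 to 0.21 in HF-Q, a log2 fold change of 0.10 ± 0.039 (SE). Rplp1 and Rplp2, which bind to Rplp0 as dimers, had 0.062 ± 0.043 (SE) and 0.097 ± 0.034 (SE). All 3 thus had a higher mean in HF-Q, as had Rpl12 at their base.

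Rpl10 was at 0.073 ± 0.030 (SE), with HF livers between 0.071 and 0.24 and HF-Q livers between 0.19 and 0.29. Rpl13a, which is also the protein released from the ribosome in the interferon-gamma response, ran from -0.29 to 0.036 in HF and from -0.19 to 0.17 in HF-Q, and its log2 fold change was 0.12 ± 0.048 (SE). Rpl22, without which mice are viable, had 0.060 ± 0.039 (SE). For Rpl39, in the wall of the peptide tunnel, the values ran from -0.34 (HF 5) to 0.013 in HF and from -0.12 to 0.12 in HF-Q, with a log2 fold change of 0.10 ± 0.042 (SE). The bright genes Rpl41 and Rpl37a had 0.056 ± 0.042 (SE) and 0.060 ± 0.038 (SE). Rpl37 and Rpl19 had the smallest spreads of the large subunit, with SDs over the 21 livers of 0.042 and 0.047 and log2 fold changes of 0.020 ± 0.028 (SE) and 0.053 ± 0.027 (SE).

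In the small subunit, Rps6, the protein that S6 kinase phosphorylates when mTORC1 is active, had means of 0.031 ± 0.076 (SD, n = 11) in HF and 0.060 ± 0.057 (SD, n = 10) in HF-Q, a log2 fold change of 0.028 ± 0.035 (SE). Rpsa, the laminin receptor precursor, had 0.11 ± 0.047 (SE). Its HF livers ran from -0.22 to 0.16 and its HF-Q livers from 0.00070 to 0.20. Rps27a, made as a fusion with ubiquitin, had 0.072 ± 0.053 (SE), and Rps3, at the entry of the messenger RNA and also a DNA repair factor, 0.073 ± 0.037 (SE).

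Rps4x, the X-linked form of Rps4, had 0.080 ± 0.030 (SE), with HF-Q livers within -0.0035 to 0.077. Rps18, at the head of the subunit, had 0.086 ± 0.047 (SE). Rps19, whose human counterpart is mutated in Diamond-Blackfan anaemia, had 0.051 ± 0.034 (SE). The other 2 genes of widest spread were Rps12, with an SD of 0.14 over the livers and a log2 fold change of 0.11 ± 0.061 (SE), and Rps14, with an SD of 0.14 and 0.096 ± 0.058 (SE). Rps21 ran from -0.38 to -0.012 in HF and from -0.19 to 0.27 in HF-Q, with 0.13 ± 0.052 (SE).

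Rps2, at the entry of the messenger RNA, was the only gene whose chosen probe had a lower mean in HF-Q, by less than its error. It ran from -0.18 to 0.11 in HF (median -0.090) and from -0.17 to 0.044 in HF-Q (median -0.075), with means of -0.055 ± 0.082 (SD, n = 11) and -0.060 ± 0.073 (SD, n = 10). Its log2 fold change was -0.0052 ± 0.038 (SE), and its next brightest probe gave 0.00019. The array's mm9 annotation places the chosen probe at chr17:42864841-42864900, away from the annotated start of Rps2 (chr17:24720048-24720077 in GRCm38.p6). The next brightest probe, at chr17:24857583-24857642, lies nearer to that start. The lower mean therefore belongs to a probe that is not placed at the gene.

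Rps27 and its paralog Rps27l, a p53 target that differs from it in a few residues, both had a measured probe. The array's annotation places the Rps27 probe on chromosome 9, while RefSeq has the gene on chromosome 3. Whether RNA from a copy adds to its values was not tested. Rps27 had means of -0.033 ± 0.13 (SD, n = 11) in HF and 0.068 ± 0.079 (SD, n = 10) in HF-Q, a log2 fold change of 0.10 ± 0.048 (SE). Rps27l had -0.040 ± 0.082 (SD, n = 10) and -0.040 ± 0.11 (SD, n = 8), with a log2 fold change of 0.00036 ± 0.048 (SE). The difference between the paralogs was not tested.

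Over the 21 livers the genes varied together. The correlation between a pair of the 78 genes had a median of 0.593 (quartiles 0.434 and 0.711), beside a median of 0.0013 between pairs among 2000 other genes. It was 0.585 between large subunit genes, 0.610 between small subunit genes and 0.594 between a large and a small subunit gene. These values are descriptions over the same 21 arrays, whose normalization and group difference all pairs share. Set against the mean of the other 77, a gene correlated at a median of 0.763, and 73 of 78 were above 0.5. The highest were Rps10 at 0.954, Rps16 at 0.941 and Rpl13a at 0.940. Rps27l was the lowest at -0.174, followed by Rps2 at 0.290, Rpl24 at 0.311, Rps15 at 0.319 and Rps19 at 0.416. These genes are named here by their place in this order. Per unit of the mean of the other genes, Rpl12 moved by 2.24 units and Rps10 by 1.34.

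**Figure D5:**
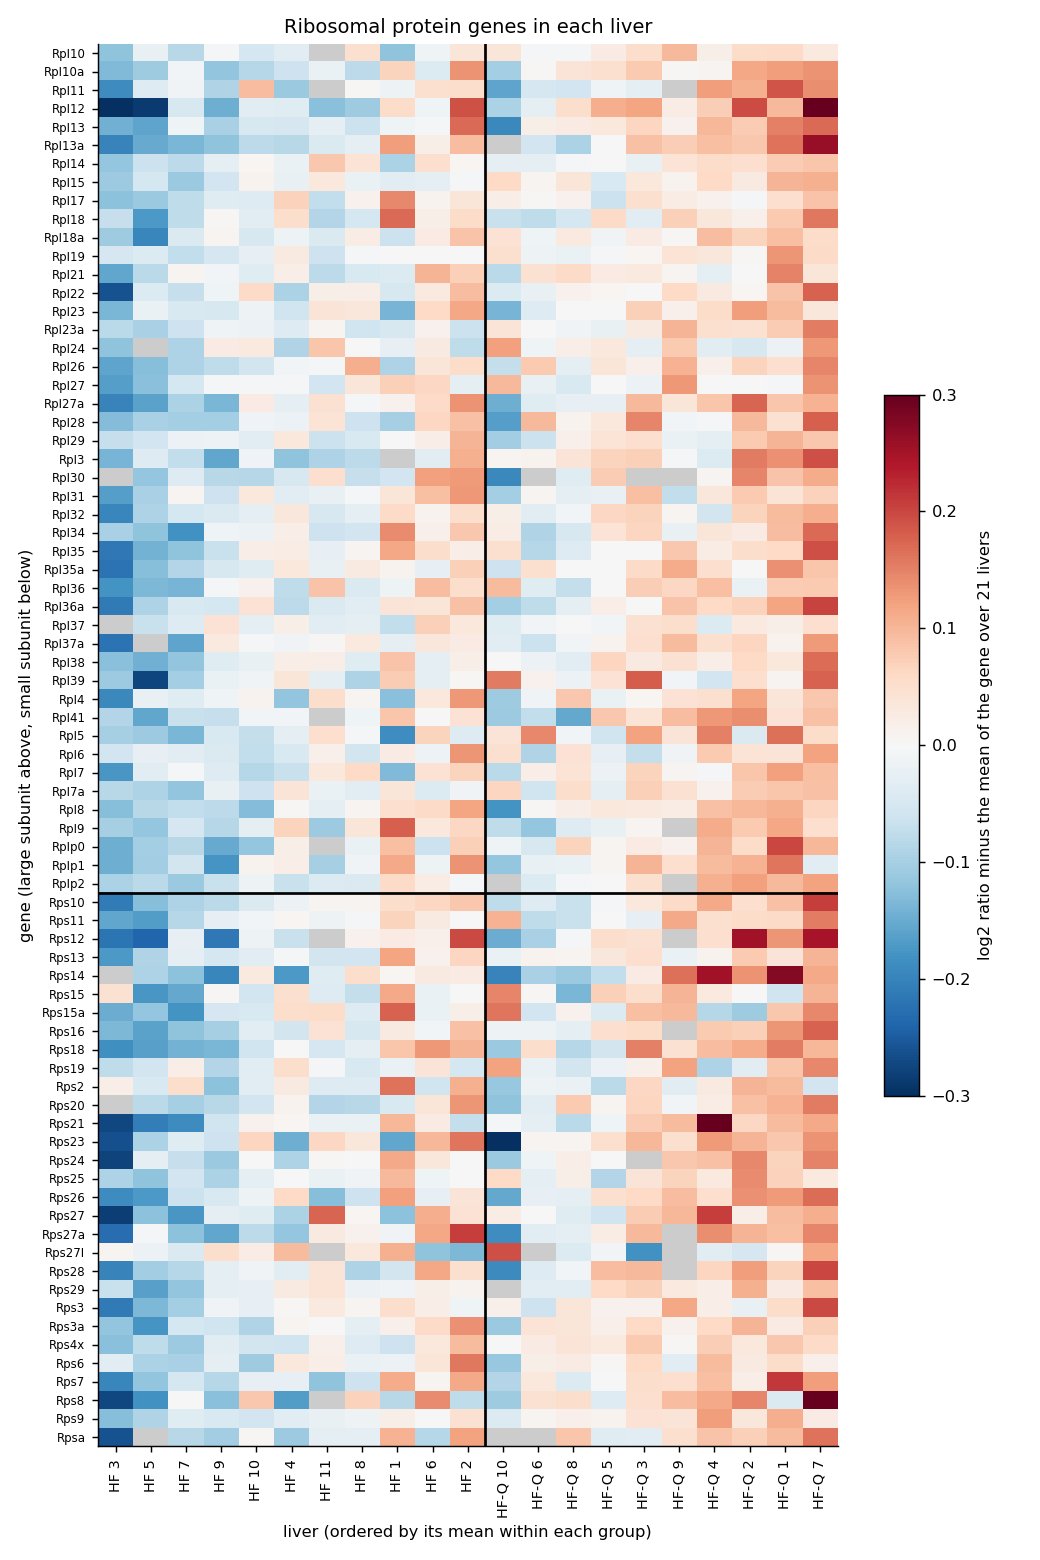
Log2 ratio of 76 of the 78 genes in each liver after subtraction of the mean of the gene over the 21 livers; rows are large subunit genes above the line and small subunit genes below it, columns are livers ordered by their mean within HF (left) and HF-Q (right), and grey cells are spots left out. Most genes are low in HF 3 and HF 5 and high in HF-Q 7 and HF-Q 1, and the rows of Rps27l and Rps2 do not follow the others.

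For 1 probe the array itself gives the spread between spots. This probe of Rpl23, a large subunit protein that also binds Mdm2, is spotted 10 times on each array. The SD between these spots had a median of 0.034 (0.026 to 0.047 over the arrays). The SD of the mean of the 10 spots over the 21 livers was 0.064. It is not the probe chosen for Rpl23: its Cy5 level was 3695, beside 140620 for the chosen probe, and their correlation over the livers was 0.521. The spot error of the chosen probes was not measured.

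Other probes for the same genes gave the same direction. Of the 178 kept probes for the 78 genes, 176 had a higher mean in HF-Q. The 2 lower ones were the chosen probe of Rps2 and the second probe of Rpl22, at -0.033. Of 57 genes with several kept probes, 55 had all of them on the same side. Probes of a gene were read on the same arrays and some overlap in annotated position, so their agreement is no separate measurement. The 100 kept probes that were not chosen correlated with the chosen one at a median of 0.874 over the livers and a lowest value of -0.308. The 18 of them with a Cy5 level under 5000 had a median correlation of 0.345, and the 82 brighter ones 0.901. Within a gene the brightest kept probe was a median of 2.84 times as bright as the dimmest, and at most 1100 times.

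Ribosomal protein genes have many processed pseudogenes, and several probes match more than 1 listed transcript. For 28 of the 78 genes, the chosen probe shared at least 30 bases with a probe that the array lists under another name, mostly a predicted gene or an unnamed transcript. Of 38 such probes with a value, 37 had a higher mean in HF-Q, and their log2 fold changes differed from that of the gene by a median of 0.010. They were picked for the bases they share with the chosen probe and can bind the same message, so they are no separate measurement. The array's mm9 annotation places all 4 probes of Rps27 on chromosome 9 and all 3 of Rps29 on chromosome 2, while RefSeq has these genes on chromosomes 3 and 12. It places the chosen probe of Rps2 at chr17:42864841-42864900, away from the gene, and its other probe at chr17:24857583-24857642, nearer to the annotated start. Among probes that were not chosen, some of Rpl13 (chromosome 4), Rpl36 (chromosome X) and Rps4x (chromosome 3) are also placed off the chromosome of the gene. Whether RNA from a copy adds to the values of any of the 78 genes was not tested.

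Genes of neighbouring functions had medians between -0.013 and 0.047. Of 8 measured ribosomal proteins and fusions that the name pattern leaves out, 7 had a higher mean in HF-Q, with a median log2 fold change of 0.047 and 1 with an unadjusted p under 0.05, Gnb2l1 (Rack1), the small subunit scaffold of signalling proteins, at 0.12 ± 0.042 (SE). Fau, made as a fusion with a ubiquitin-like protein, had 0.0082 ± 0.035 (SE). Of 15 translation factors and other genes whose messages carry a TOP tract, 10 were higher and 5 lower, with a median of 0.027. The 1 of these 15 with an unadjusted p under 0.05 in limma was Eef1b2, a subunit of the exchange factor of eEF1A, at 0.13 ± 0.037 (SE). Eef1a1 itself had 0.054 ± 0.038 (SE) and Eef2, the translocase, -0.027 ± 0.051 (SE). Of all genes tested, 5.95% had an unadjusted p under 0.05. None of these lists held a gene past an adjusted p of 0.05 in limma.

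Ribosome biogenesis genes, such as Fbl and Ncl of the nucleolus, were 22 higher and 13 lower of 35, with a median of 0.0061. The 1 with an unadjusted p under 0.05 was Dkc1, the pseudouridine synthase, at -0.10 ± 0.037 (SE). Of 13 measured genes of the mTORC1 route, 5 were higher and 8 lower, with a median of -0.013, and Larp1 had 0.039 ± 0.089 (SE). The 76 mitochondrial ribosomal proteins, which form the separate ribosome of that organelle, were 45 higher and 31 lower with a median of 0.010, and 0 of them had an unadjusted p under 0.05. That p was reached by 5.95% of all genes tested. Whether these lists differ from the cytosolic ribosomal proteins was not tested.

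None of the marker genes of liver cell types, blood or pancreas passed an adjusted p of 0.05 in limma. One, Hba-a1, an alpha globin of red cells, had an unadjusted p under 0.05, with a log2 fold change of -0.24 ± 0.12 (SE) and an adjusted p of 0.834. The measured markers of erythroid cells (3 of 4), endothelium (4 of 4), acinar cells (4 of 8), bile duct (2 of 4) and adipocytes (1 of 3) all had a lower mean in HF-Q, with medians of -0.22, -0.066, -0.42, -0.0080 and -0.077. Stellate cell and fibroblast markers were 1 higher and 5 lower, lymphocyte markers 1 and 3, Kupffer cell markers 3 and 3, and hepatocyte markers 4 and 4, with medians of -0.048, -0.041, -0.00022 and -0.0051. Per liver, the mean over the erythroid markers ran from -0.33 to 0.30 in HF and from -0.43 to 0.17 in HF-Q. The mean over the endothelial markers ran from -0.11 to 0.19 and from -0.093 to 0.12. The part of these cells in the difference was not tested. Without HF 5 and HF 11, the livers with acinar transcripts, 76 of the 78 genes were higher in HF-Q and the median log2 fold change was 0.063.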

How the data were processed

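Per the file headers, the authors deposited scanner output of 21 two-colour Agilent arrays with raw mean and background intensity in Cy5 and Cy3, and with processed intensity from which background and dye bias were removed by the scanner software. The submitters' processing notes name Agilent Feature Extraction 10.7.3.1. A deposited table of log2 values (34373 spots, every column with a median of 7.92, by a step not given in the sources used here) was used as an alternative.

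There were 62976 spots per array, of which 3671 were controls. In limma 3.58.1 under R 4.3.3, background was corrected with normexp (offset 50) and ratios were normalized by loess within arrays. Controls, and any spot marked as uneven or outlying, had weight 0 and were then dropped, which touched 23 of the 78 genes on at least 1 array. Replicate spots were averaged. Probes well above background in Cy5 on at least 10 arrays were kept, and the brightest of them represented its gene. HF-Q was compared with HF by lmFit and eBayes (two-sided, Benjamini-Hochberg over 19650 genes, threshold 0.05). The number of arrays limits the precision. No pair of arrays was identical. Loess assumes that genes of like brightness are on average unshifted, so it can shrink a shift shared by bright genes. Motifs and probe overlaps were found with Python 3.11.15. The script was tested on simulated data.

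The members and lists were chosen with earlier results of these data known. Genes named are the 5 with the lowest p in each direction (only 1 was lower), the 5 brightest, since none was saturated, the 5 dimmest, the 3 with the largest and the 3 with the smallest SD, and a fixed panel of 23. Alternatives changed background correction, normalization, filter, probe, covariates and arrays. Some genes that this rule names are not reported here.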

Additional observations from a re-analysis of the deposited data

Results flagged for a closer look

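In the HF-Q group, 35 sets of 10 or fewer livers were searched for a single liver far from the others, and chance marks about 1 in 20 such sets. Rps21 in HF-Q 4 had a log2 ratio of 0.268, with the next liver at 0.0024, a gap of 0.577 of the range of the group (limit 0.466 for 10 livers). Rpl19 in HF-Q 1 had 0.016, with the next liver at -0.059, a gap of 0.491 of the range.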

How the results depend on the processing

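In every alternative run, 0 ribosomal protein genes passed the threshold and their median log2 fold change stayed above 0. With median centring it was 0.14 (large subunit 0.14, small subunit 0.14), beside 0.067 with loess. The number of all genes past the threshold, 0 in the main setting, was 1 with array weights and 1 on slide 2 alone, and 0 to 4 with a single liver left out: leaving out HF replicate 2 gave 4 and HF-Q replicate 10 gave 1. With 1 liver left out the members' median ran from 0.054 to 0.077. The difference between the medians of the subunits, -0.0090, was 0.0077 on slide 2 alone. The median Cy5 level over all 81 names was 58630 intensity units from the mean signal and 23842 from the scanner's processed signal.

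Of 1198 fold changes of 31 named genes under alternatives, 1173 kept their direction, and 27 genes never reversed. Rps2 log2 fold change reversed to 0.0036 with offset 10, 0.068 with median centring, 0.021 in Cy5 alone, 0.041 in the deposited table, 0.00019 with the next brightest probe, 0.021 on slide 2 alone and 0.0036 with loess fitted without ribosomal protein spots, and ran from -0.018 to 0.011 with 1 liver left out. Rps27l log2 fold change reversed to -0.026 with median centring, -0.0014 with scale normalization, -0.017 on slide 2 alone and -0.0016 without HF 5 and HF 11 together, and ran from -0.027 to 0.026 with 1 liver left out. Rpl22 was -0.033 with its next brightest probe, and Rps19 was -0.0028 on slide 3 alone. The cause of these was not tested.

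The labels do not say whether the replicate numbers in the titles pair the mice. The deviations of same-numbered livers correlated at -0.336 to 0.157, and 1 of 10 pairs was over 0.1. Such correlations cannot exclude a pairing that has little effect on expression. With the replicate block (replicates 1 to 10) the median was 0.070, with 76 of 78 genes higher. Leaving out the livers with acinar transcripts, keeping marked spots and the loess without ribosomal protein spots were chosen after seeing the data. With trend and robust eBayes, only the 55 members measured on all 21 arrays were fitted.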
